A study of Mus musculus with 4 samples.

Results

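The 9 type I interferon response genes *Isg15*, *Ifit1*, *Ifit2*, *Ifit3*, *Irf7*, *Bst2*, *Rtp4*, *Oasl2* and *Ifi27l2a* were followed cell by cell in the bone marrow of *Tet2* KO mice and of WT controls. They were taken by symbol from the 18695 genes of the count matrix, and all 9 members were found. The data are 4 scRNA-seq libraries, 1 for each genotype and sort. The first sort took granulocyte-monocyte progenitors (GMP, Lin- cKit+ Sca1- CD34+ CD16/32+). The second took Lin- progenitors together with CD11b+ myeloid cells and is called Lin-CD11b here. WT mice were *Tet2* fl/fl littermates without the Cre transgene, and *Tet2* KO mice were *Tet2* fl/fl with Mx1-Cre. Mice of both genotypes received 4 intraperitoneal doses of pI:pC at 12.5 ug/g, so the WT libraries are pI:pC-treated controls and no untreated library was analysed here. The synthetic double-stranded RNA pI:pC induces type I interferon, and the Mx1 promoter that drives Cre is itself interferon-inducible. The time from the last dose to harvest was not stated in the sources used here. Both sorts of a genotype came from 1 mouse, so 2 mice stand behind the 4 libraries, and genotype and mouse cannot be told apart.

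Type I interferons, IFN-alpha and IFN-beta, bind the receptor made of IFNAR1 and IFNAR2. The kinases JAK1 and TYK2 then pass the signal on to transcription factors, which enter the nucleus with IRF9 and bind interferon-stimulated response elements. The induced genes hold back viral RNA, translation and budding. In bone marrow, interferon given acutely drives quiescent stem cells into cycle. Plasmacytoid dendritic cells are the specialised producers of type I interferon and keep IRF7 at hand for it.

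The promoters show what part of the list shares in sequence. An element with 2 GAAA repeats separated by 2 bases (GAAANNGAAA) was searched on both strands, with overlapping matches counted. The RefSeq promoter windows ran from 250 bases before to 50 after the start (GRCm38.p6). It was found for 4 of the 7 members that have a window, 57.1%, against 3.99% of 27025 gene symbols. A gene was counted if any of its windows matched, and of 32851 single windows 3.44% matched. The 4 windows with a match belong to *Isg15*, *Ifit1*, *Ifit3* and *Bst2*. Their 200 bases before the start are printed 5′ to 3′ along the gene's strand, with the matched bases in capitals, since the position and the strand of the element differ among them.

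*Isg15*, chr4:156200819-156201018, minus strand: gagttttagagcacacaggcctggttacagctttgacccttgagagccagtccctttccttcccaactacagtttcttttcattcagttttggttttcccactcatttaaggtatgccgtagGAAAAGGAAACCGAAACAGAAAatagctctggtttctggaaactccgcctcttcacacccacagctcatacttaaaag

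*Ifit1*, chr19:34640689-34640888, plus strand: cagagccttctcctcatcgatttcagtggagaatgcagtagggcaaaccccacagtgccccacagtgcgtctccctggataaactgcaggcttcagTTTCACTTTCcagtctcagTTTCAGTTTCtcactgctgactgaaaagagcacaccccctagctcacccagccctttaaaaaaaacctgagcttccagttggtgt

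*Ifit3*, chr19:34583329-34583528, plus strand: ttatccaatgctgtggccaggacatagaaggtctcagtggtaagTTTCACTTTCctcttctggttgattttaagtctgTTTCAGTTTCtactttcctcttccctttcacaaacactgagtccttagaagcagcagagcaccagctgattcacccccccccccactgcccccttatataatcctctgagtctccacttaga

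*Bst2*, chr8:71537473-71537672, minus strand: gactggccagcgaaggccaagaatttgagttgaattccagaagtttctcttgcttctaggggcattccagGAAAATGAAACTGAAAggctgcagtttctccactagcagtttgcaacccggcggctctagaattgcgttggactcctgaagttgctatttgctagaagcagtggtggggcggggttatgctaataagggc

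*Isg15* holds 3 overlapping matches between 57 and 78 bases before its start, and *Bst2* holds 2 between 115 and 130 bases before, all on the gene's own strand. The 2 matches of *Ifit1*, between 76 and 104 bases before the start, and the 2 of *Ifit3*, between 113 and 156 bases before, lie on the opposite strand. The windows of *Irf7*, *Oasl2* and *Ifit2* hold none of these letters, which says nothing of other forms of the element. *Rtp4* and *Ifi27l2a* have no window in the table. With 1 base between the repeats 1 of 7 members matched against 3.70% of gene symbols, and with 3 bases 1 of 7 against 3.17%. Among the other lists, 9 of 9 interferon-induced GTPases and 18 of 43 other effectors (41.9%) held the element with 2 bases between. Sensors and adaptors gave 3 of 7, negative regulators 2 of 5 and ligands 3 of 9. It was found in 1 of 6 other IRF factors, 1 of 8 receptor and signal genes and 0 of 3 genes of the ISG15 pathway.

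By GENCODE (GRCm38), *Ifit2*, *Ifit3* and *Ifit1* lie in this order on chromosome 19 between 34550694 and 34650009, on the plus strand. *Isg15* is at chr4:156199424-156200818 (minus strand), *Oasl2* at chr5:114896936-114912234 (plus), *Irf7* at chr7:141262706-141266481 (minus) and *Bst2* at chr8:71534255-71537456 (minus). *Ifi27l2a* is at chr12:103442167-103443680 (minus) and *Rtp4* at chr16:23520291-23614222 (plus). Counts of 2 members are uncertain for this reason. Of the 90-base windows of *Ifit3* transcripts, 35.1% also occur in the copy *Ifit3b*, and exons of *Rtp4* overlap those of *Gm45338* on the same strand.

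The libraries held 1258 (GMP WT), 2719 (GMP *Tet2* KO), 1924 (Lin-CD11b WT) and 3068 (Lin-CD11b *Tet2* KO) cells with 22681380 to 42561110 UMIs in all and a median of 10417 to 18713 UMIs per cell, the GMP sort being the deeper. The study lists the cell numbers of GMP *Tet2* KO and Lin-CD11b WT the other way round, and the deposited column that assigns each cell to its library was used. By that column, plasma cell-like cells, which are rich in Jchain, were 0 of 2719 in GMP *Tet2* KO, which allows a share of up to 0.136%, and 153 of 1924 (7.95%) in Lin-CD11b WT. Pairs of libraries shared 4 to 8 cell barcodes. *Tet2* itself was at 13.02 and 13.4 CPM (UMIs of a gene per 1000000 UMIs of the cells pooled) in WT and at 17.0 and 20.7 CPM in *Tet2* KO for the GMP and Lin-CD11b sorts, and a 3′ tag outside the deleted exons does not check the deletion. The macrophage markers *C1qa*, *C1qb* and *C1qc* were at 1.06 CPM or less and the haemoglobin genes *Hba-a1* and *Hbb-bs* at 1.23 CPM or less. Other markers of these lineages were higher, with Vcam1 at 3.56 to 8.69, Adgre1 at 2.53 to 5.70, Itga2b at 5.56 to 8.69 and Car2 at 12.5 to 54.7 CPM over the 4 libraries. Of the 8969 cells, 413 had at least 5% mitochondrial UMIs.

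Cells were placed in 13 types by thresholds on the UMIs of marker genes per 10000 UMIs of the cell, with no member among the markers, and the names end in "-like" since they rest on these markers. Stem-like cells reach 1 on this scale for stem cell markers such as *Hlf*, *Procr* and *Mecom* together, while early, monocytic and granulocytic progenitor-like cells are rich in the granule genes *Mpo*, *Elane*, *Ctsg* and *Prtn3*. Monocyte-like cells are rich in *Fn1* and *Lgals3* and are called Clec4a+ where *Clec4a1* and *Clec4a3* together reach 1 and Clec4a- otherwise. The thresholds were set after the levels of the members per cluster had been seen, and *Ifi27l2a* is among the 10 leading genes of the Clec4a+ monocyte-like cells by fold, so the contrast between cell types is a description. Of 8137 gated cells, 77.1% lay in a Leiden cluster of the same name. Of the 329 Clec4a+ monocyte-like cells, 173 were in the cluster of that name and 132 in that of the Clec4a- cells, and the Clec4a+ cluster also took 78 of the 86 T/NK-like cells. Clec4a+ monocyte-like cells were 80 of 1924 cells (4.16%) in Lin-CD11b WT and 249 of 3068 (8.12%) in *Tet2* KO, and stem-like cells 80 (4.16%) and 217 (7.07%).

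With 1 library per genotype and sort no test was possible. Intervals are exact 95% intervals and cover counting error only, not the spread between mice or between cells. A member is said to have risen or fallen where the CPM of the pooled cells differed at least 1.5-fold with at least 20 UMIs over both libraries, and the share of all genes past the same fold is given beside each count. Since a member can reach 20 UMIs through the library where it is high, these counts describe only the members that did.

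Upon *Tet2* KO, most of the members that could be compared were higher in stem-like, Clec4a+ monocyte-like, cDC-like (conventional dendritic) and early progenitor-like cells of the Lin-CD11b sort. Clec4a+ monocyte-like cells had the most members measured. There *Isg15*, *Irf7*, *Rtp4*, *Oasl2* and *Ifi27l2a* rose, 5 of 8 members, and 0 of 8 fell, against 15.3% of 7324 genes higher and 9.57% lower. The median log2 ratio of CPM + 1 over the 8 members was 1.07, and over all genes 0.02. In stem-like cells, *Isg15*, *Ifit1*, *Rtp4*, *Oasl2* and *Ifi27l2a* rose, 5 of 7, and 0 of 7 fell, against 12.8% of genes higher and 7.54% lower, with a median of 0.83 against 0.03. In cDC-like cells, 3 of 5 members rose (*Isg15*, *Oasl2* and *Ifi27l2a*) and 0 fell, against 11.7% and 12.4% of genes, with a median of 1.31. In early progenitor-like cells of this sort, *Isg15*, *Ifit1*, *Oasl2* and *Ifi27l2a* rose, 4 of 6, and 0 fell, against 8.9% and 5.37% of genes and a median of 0.77. There *Ifit1* reached the limit of 20 UMIs only through *Tet2* KO, with 0 UMIs in WT and 25 in *Tet2* KO. Without this limit, over all 9 members, the median was 0.45 in these cells. It was 1.02 in Clec4a+ monocyte-like, 0.83 in stem-like and 1.62 in cDC-like cells.

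Fewer members passed in the other mature types. Among Clec4a- monocyte-like cells, *Isg15*, *Irf7* and *Ifi27l2a* rose, 3 of 5, and 0 fell, where 7.99% of genes were higher and 5.84% lower. In neutrophil-like cells, *Isg15*, *Rtp4* and *Ifi27l2a* rose, 3 of 6, while *Irf7* fell, 1 of 6. Here 29.3% of all genes were higher and 4.68% lower and the median gene stood at 0.32 beside 0.36 for the members, so the shift of the members was close to that of the whole profile. In plasma cell-like cells *Ifi27l2a* and *Bst2* rose (2 of 4) and *Isg15* fell (1 of 4), against 19.0% of genes higher and 7.18% lower. *Isg15* alone rose in pDC-like (plasmacytoid dendritic) cells, 1 of 4 with 0 lower, against 7.48% and 7.99% of genes. In basophil-like cells 2 members reached 20 UMIs, of which *Ifi27l2a* rose (1 of 2) and 0 fell, against 13% and 12.2% of 4482 genes.

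Few members passed in the committed progenitors of the same sort. Among monocytic progenitor-like cells 1 of 4 members, *Ifi27l2a*, rose and 0 fell, where 7.74% of genes were higher and 4.36% lower, and the median was 0.08. Among granulocytic progenitor-like cells 2 of 3, *Isg15* and *Ifi27l2a*, rose and 0 fell, where 8.35% were higher and 6.45% lower.

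The GMP sort gave calls in both directions. The intervals of both falls spanned 0, as did those of the rises of *Irf7* and *Ifit1*. In its monocytic progenitor-like cells *Isg15* and *Irf7* rose (2 of 6) and *Oasl2* fell (1 of 6), against 4.04% and 5.51% of 10619 genes. In its granulocytic progenitor-like cells *Isg15* rose (1 of 8) and *Irf7* fell (1 of 8), against 4.16% and 6.44%. In its early progenitor-like cells *Ifit1* and *Ifi27l2a* rose (2 of 7) and 0 fell, against 5.36% and 9.02%. The medians over the members were 0.27, 0.19 and -0.01. In its basophil-like cells *Bst2* alone reached 20 UMIs and did not pass (0 of 1 higher or lower), against 9.55% and 10.0% of genes.

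**Figure D1:**
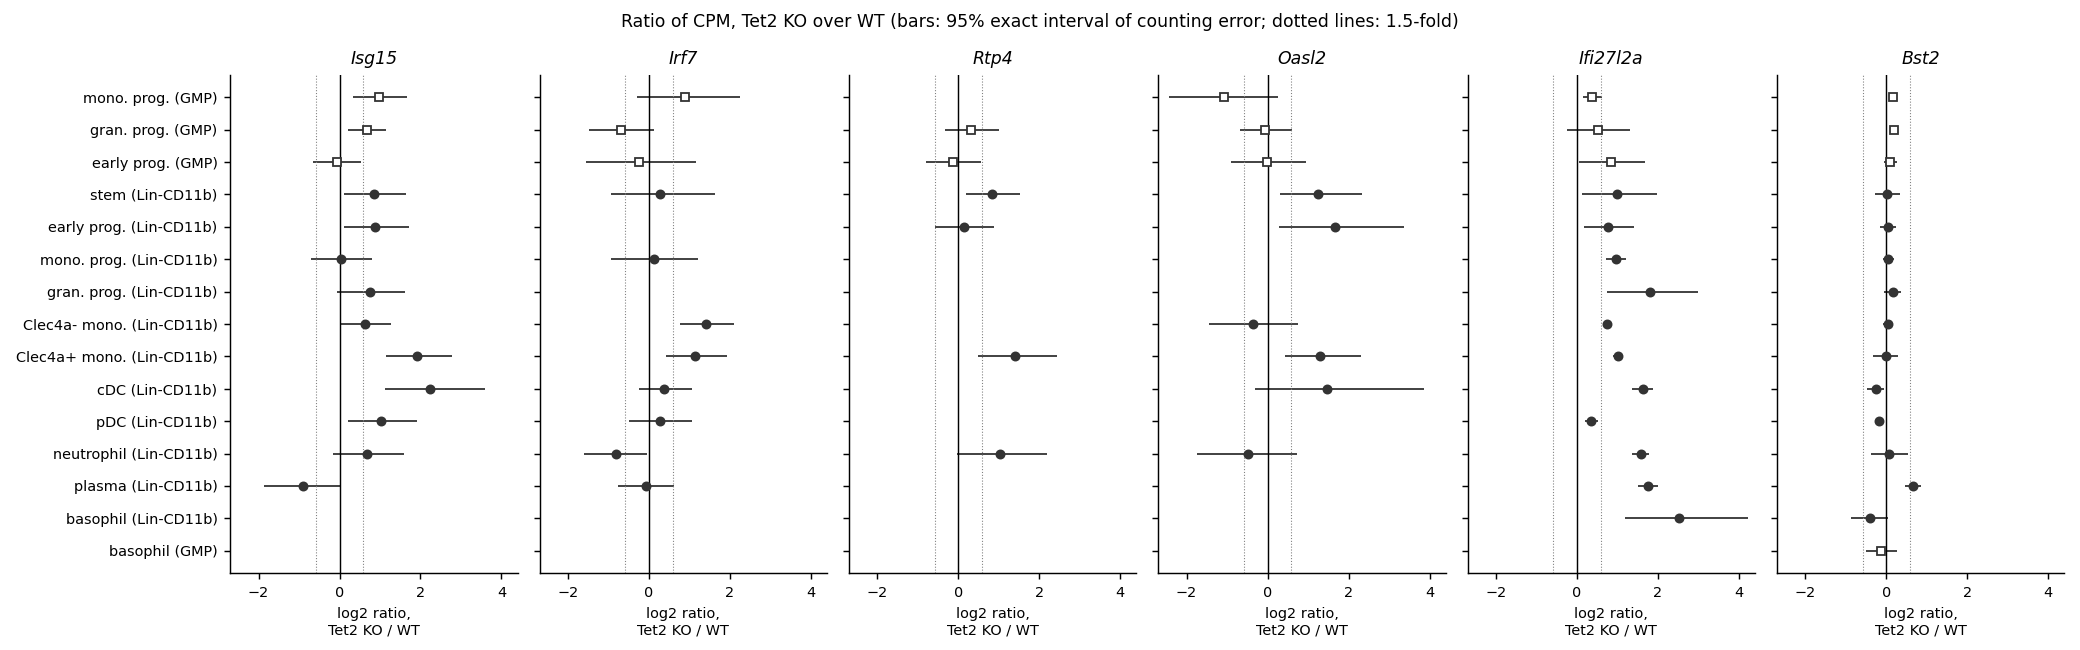
Ratio of CPM in *Tet2* KO to that in WT on the log2 scale (horizontal axis), of 6 members in the 15 comparisons of cell type and sort (vertical axis), shown where both libraries together held at least 20 UMIs; bars are exact 95% intervals for counting error and dotted lines mark 1.5-fold. *Isg15* (2.24) and *Ifi27l2a* (1.62) lie far to the right in cDC-like cells, and *Ifi27l2a* furthest in basophil-like cells (2.53), while the points of *Bst2* stay between -0.41 and 0.67.

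*Irf7*, the transcription factor that amplifies type I interferon production, was highest in cDC-like and Clec4a+ monocyte-like cells among the types compared. Its level was 49.5 CPM (interval 32.9 to 71.5) in WT and 64.5 CPM (51.4 to 79.8) in *Tet2* KO cDC-like cells. In pDC-like cells it was 19.3 and 23.4 CPM, and in early progenitor-like cells 2.08 and 2.49 CPM. The differences between genotypes in these 3 types were within counting error.

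In Clec4a+ monocyte-like cells *Irf7* was at 29.2 CPM in WT and 64.2 CPM in *Tet2* KO, a log2 ratio of 1.14 (0.42 to 1.94). For Clec4a- monocyte-like cells these were 7.22 and 19.3 CPM, a log2 ratio of 1.41 (0.78 to 2.10). The intervals of both genotypes were apart in both types. At 5000 UMIs per cell, the share of cells with an *Irf7* UMI was 12.5% in WT and 23.3% in *Tet2* KO Clec4a+ monocyte-like cells (15.0% and 34.9% as deposited) and 0.741% and 1.20% in early progenitor-like cells, where it was lowest among the types named here. Neutrophil-like cells went the other way, with 26.9 CPM in WT and 15.3 CPM in *Tet2* KO, a log2 ratio of -0.82 (-1.59 to -0.06). Without the 1% of cells with the most member UMIs this ratio was -0.45 and no longer past 1.5-fold. In the GMP sort the ratio was 0.89 (-0.29 to 2.25) in monocytic and -0.68 (-1.48 to 0.12) in granulocytic progenitor-like cells, and neither call was kept in the same cell type of the Lin-CD11b sort (0.12 and 0.18).

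*Isg15*, a ubiquitin-like modifier that is joined to other proteins and also secreted, rose in 10 of the 13 comparisons in which it reached 20 UMIs and fell in 1. In basophil-like cells, with 6 to 9 UMIs a library, it was at 15.3 CPM in WT and 9.19 CPM in *Tet2* KO of the Lin-CD11b sort and at 10.6 and 8.91 CPM in the GMP sort. Its largest rises were in cDC-like cells, from 12.4 CPM (4.98 to 25.5) to 58.3 CPM (46.0 to 73.0), and in Clec4a+ monocyte-like cells, from 24.3 CPM (13.6 to 40.1) to 91.7 CPM (79.1 to 106). These are 4.71-fold and 3.77-fold, with log2 ratios of 2.24 (1.12 to 3.60) and 1.92 (1.16 to 2.78). The 7 and 15 UMIs of the WT libraries set the width of these intervals. Of the 15 UMIs in WT Clec4a+ monocyte-like cells, 10 were in 1 of the 80 cells, and without the 1% of cells with the most member UMIs the log2 ratio there was 3.37.

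In stem-like cells *Isg15* was at 25.8 CPM in WT and 46.5 CPM in *Tet2* KO (log2 ratio 0.85, 0.12 to 1.65), and in early progenitor-like cells at 9.37 and 17.2 CPM (0.87, 0.11 to 1.71). In pDC-like cells it was at 13.4 and 27.2 CPM (1.02, 0.20 to 1.90). Monocytic progenitor-like cells gave 6.69 and 6.91 CPM, a log2 ratio of 0.05, and granulocytic progenitor-like cells gave 7.76 and 13.2 CPM with an interval that spanned 0 (-0.06 to 1.61). Clec4a- monocyte-like cells rose from 9.25 to 14.4 CPM (0.63, 0.03 to 1.27), and neutrophil-like cells from 12.8 to 20.6 CPM (0.69, -0.17 to 1.60), the latter at 0.37 with TMM factors. In the order of levels the intervals of neighbouring types overlapped at every step in both Lin-CD11b libraries, while the first type lay clear of the last. Plasma cell-like cells fell from 13.2 to 7.01 CPM (-0.91, -1.87 to 0.00), a call that turned to 0.12 without the deepest 5% of cells. The early progenitor-like rise was not seen in the same type of the GMP sort, which gave 12.8 and 12.1 CPM (-0.07), where 18 of the 39 WT UMIs were in 1 cell, and the pDC-like and granulocytic rises turned to -0.12 and -0.13 with Leiden clusters in place of marker thresholds.

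In the GMP sort *Isg15* rose from 2.85 to 5.65 CPM in monocytic (0.98, 0.34 to 1.67) and from 6.16 to 9.79 CPM in granulocytic progenitor-like cells (0.67, 0.20 to 1.16). The first of these was 0.05 in the same type of the Lin-CD11b sort.

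The share of Clec4a+ monocyte-like cells with an *Isg15* UMI was 6.25% (2.06 to 14.0) in WT and 25.7% (20.4 to 31.6) in *Tet2* KO at 5000 UMIs per cell, and 6.25% and 33.7% as deposited. Monocytic progenitor-like cells of the same libraries, which had the lowest level, were at 2.59% and 3.06%. Their median depth was 14075 and 14143 UMIs as deposited, against 7184 and 7257 in the Clec4a+ cells. The interval of the WT Clec4a+ cells held both of these shares and that of the *Tet2* KO cells lay above them. Free RNA was not measured in these files.

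**Figure D2:**
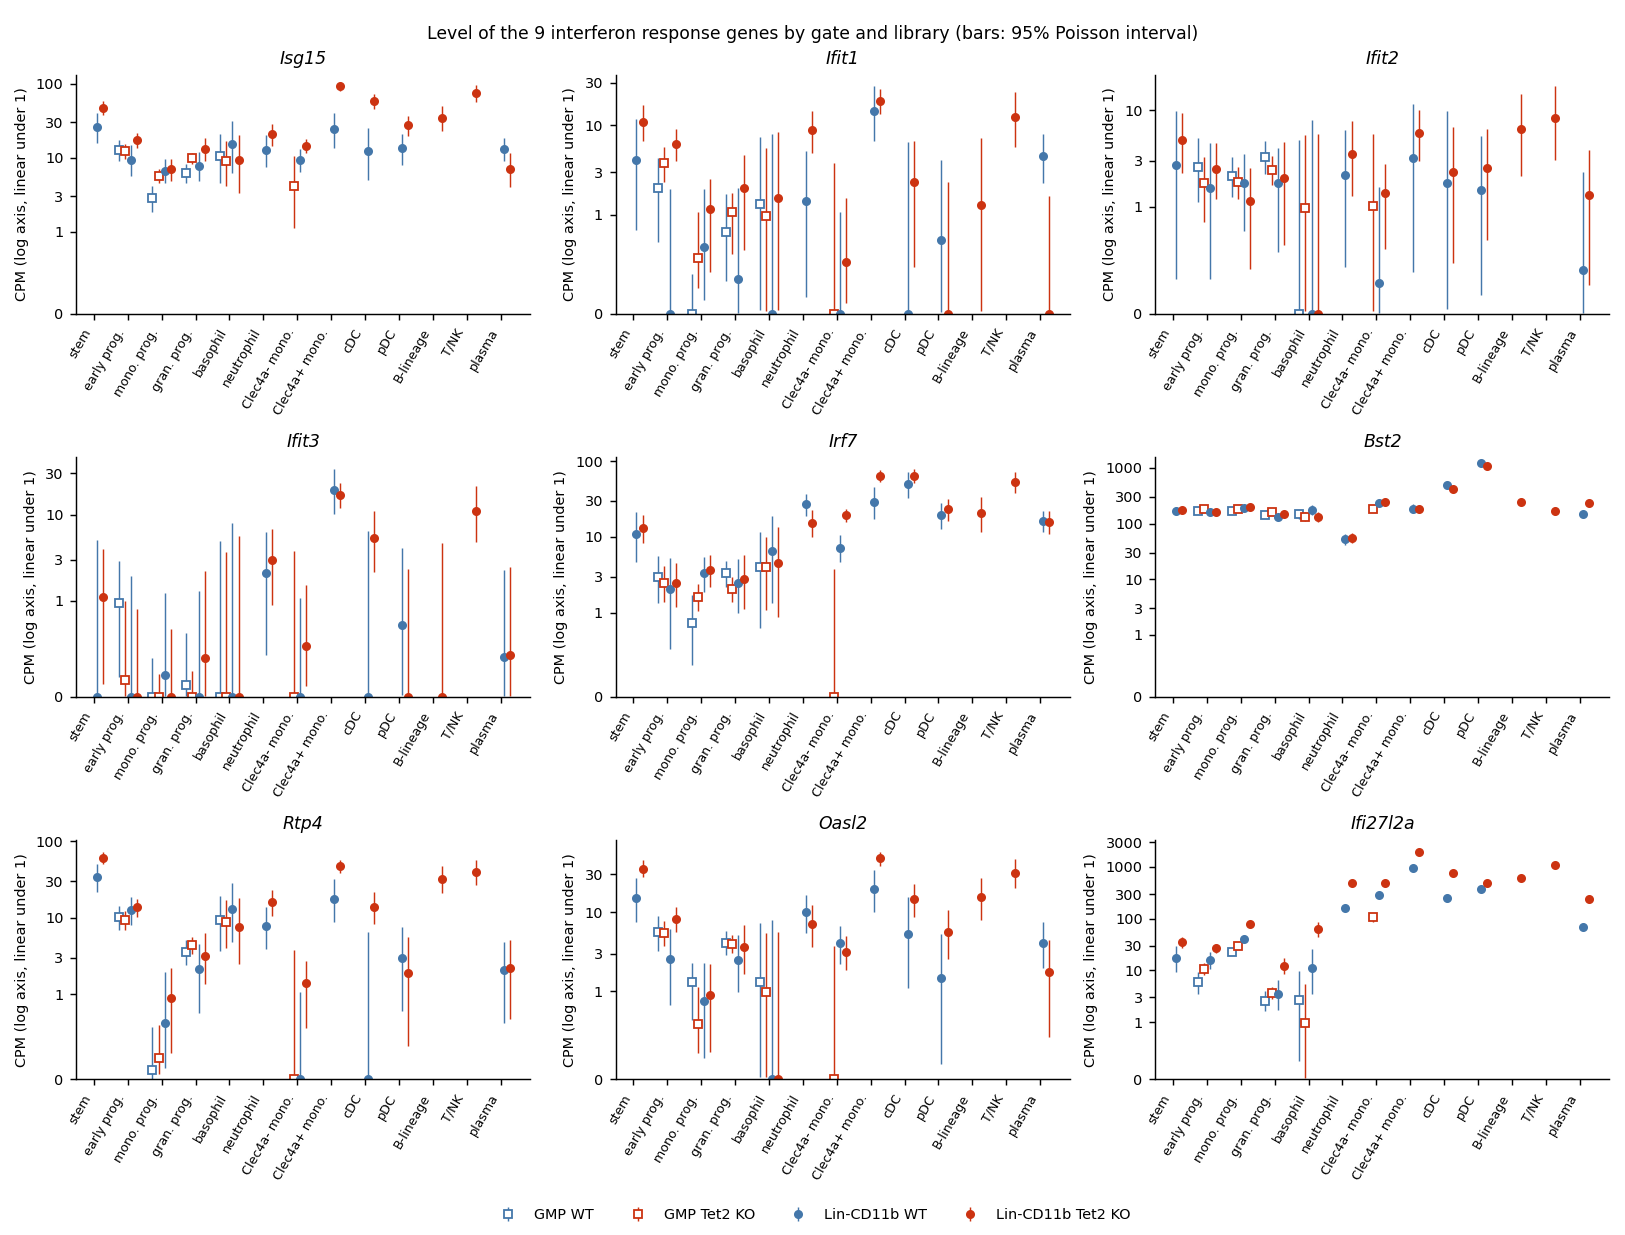
Level of each of the 9 members (vertical axis, CPM, log scale above 1 and linear below) by cell type (horizontal axis) in the 4 libraries, with GMP as open squares, Lin-CD11b as filled circles, WT in blue and *Tet2* KO in red; bars are exact Poisson 95% intervals, and types with fewer than 50 cells in a library are left out for it. *Bst2* peaks in pDC-like cells (1239 and 1101 CPM), *Ifi27l2a* in Clec4a+ monocyte-like cells (949 and 1928 CPM), and *Rtp4* is high in stem-like cells (33.9 and 60.7 CPM) and near 1 CPM in monocytic progenitor-like cells.

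The IFIT proteins bind foreign RNA, IFIT1 at an uncapped or incompletely capped 5′ end, and act in a complex with IFIT2 and IFIT3. All 3 genes were sparse. *Ifit1* was highest among the compared types in Clec4a+ monocyte-like cells, at 14.6 CPM in WT and 18.8 CPM in *Tet2* KO, a log2 ratio of 0.37 that did not pass 1.5-fold. It rose in stem-like cells, from 4.07 to 10.9 CPM, with an interval that spanned 0 (-0.33 to 3.82). In early progenitor-like cells of the Lin-CD11b sort it had 0 UMIs in WT and 25 in *Tet2* KO (6.22 CPM), a log2 ratio of at least 1.99 against a floor of 3 counts. Of those 25 UMIs 64.0% were in 3 cells. The GMP early progenitor-like cells rose from 1.96 to 3.75 CPM, with 66.7% of the *Tet2* KO UMIs in 3 cells, and this call was lost with stricter thresholds (0.31) and with Leiden clusters (0.24).

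*Ifit2* stayed between 0 and 8.26 CPM in every library and cell type with at least 50 cells. It passed the count limit only in 2 types of the GMP sort, at 2.08 and 1.82 CPM in monocytic and 3.32 and 2.43 CPM in granulocytic progenitor-like cells, and neither passed 1.5-fold. *Ifit3* was concentrated in Clec4a+ monocyte-like cells, which held 57.1% of its UMIs in the Lin-CD11b WT library and 52.2% in the *Tet2* KO one. Its levels there were 19.4 and 16.9 CPM (log2 ratio -0.20, -1.18 to 0.88). The 12 WT UMIs were all in 1 cell, and 51.4% of the 35 *Tet2* KO UMIs were in 3 cells, so these levels rest on single cells.

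*Oasl2*, a member of the oligoadenylate synthetase-like family, rose in 4 comparisons. In stem-like cells it was at 14.9 CPM (7.46 to 26.7) in WT and 35.6 CPM (27.4 to 45.3) in *Tet2* KO, a log2 ratio of 1.25 (0.32 to 2.32). Clec4a+ monocyte-like cells held it at 19.4 and 47.8 CPM (1.30, 0.43 to 2.30). At 5000 UMIs per cell the share of cells with a UMI was 5% and 18.0% in stem-like cells and 8.75% and 19.7% in Clec4a+ monocyte-like cells, and as deposited 11.2% and 24.0%, and 10.0% and 25.7%.

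No UMI of *Oasl2* was found in the 54 and 72 basophil-like cells of these libraries, which allows a share of cells with a UMI of up to 6.60% and 4.99%. In cDC-like cells *Oasl2* rose from 5.30 to 14.6 CPM, with an interval that spanned 0 (-0.31 to 3.86). The rise in Lin-CD11b early progenitor-like cells, from 2.60 to 8.21 CPM, was not seen in the GMP sort (5.56 and 5.54 CPM). The fall in GMP monocytic progenitor-like cells, from 1.32 to 0.627 CPM, had an interval that spanned 0 (-2.44 to 0.27) and turned to 0.10 in the Lin-CD11b sort.

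*Rtp4*, a receptor transporter protein that also acts as an antiviral effector, was highest in stem-like cells in both genotypes. Its level there was 33.9 CPM (22.0 to 50.1) in WT and 60.7 CPM (49.95 to 73.1) in *Tet2* KO, a log2 ratio of 0.84 (0.20 to 1.53). In monocytic progenitor-like cells it was 0.669 and 0.959 CPM, on 3 and 5 UMIs. Stem-like cells with an *Rtp4* UMI were 12.5% in WT and 25.8% in *Tet2* KO at 5000 UMIs per cell, and 17.5% and 34.1% as deposited, while monocytic progenitor-like cells were at 0.647% and 1.11%.

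Early progenitor-like cells of the Lin-CD11b sort were at 12.5 and 13.7 CPM. Among mature cells *Rtp4* was at 17.8 CPM in WT and 46.8 CPM in *Tet2* KO Clec4a+ monocyte-like cells (log2 ratio 1.39, 0.49 to 2.44). Neutrophil-like cells rose from 7.80 to 15.9 CPM (1.03, -0.03 to 2.19), at 0.57 with Leiden clusters. In cDC-like cells 0 UMIs were found in WT, where 3 counts would be 5.30 CPM, and 18 in *Tet2* KO (13.8 CPM), which is under the limit of 20 UMIs. Clec4a- monocyte-like cells held 0 and 1.40 CPM, so the monocyte-like types divided by *Clec4a1* and *Clec4a3* lay apart for this gene. From one type to the next in the order of levels, the intervals of *Rtp4* overlapped at every step in the Lin-CD11b libraries. In the GMP libraries granulocytic progenitor-like cells, at 3.55 CPM in WT and 4.43 CPM in *Tet2* KO, lay clear of monocytic progenitor-like cells, at 0.110 and 0.251 CPM.

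*Bst2* encodes tetherin, which holds budding virus on the cell surface, and it is also a surface marker of plasmacytoid dendritic cells. It was highest in pDC-like cells, at 1239 CPM (1180 to 1300) in WT and 1101 CPM (1050 to 1154) in *Tet2* KO, and these cells held 29.6% and 20.4% of its UMIs. The next were cDC-like cells with 497 and 415 CPM, and the intervals of pDC-like and cDC-like cells overlapped with no other type. Its lowest level was in neutrophil-like cells, at 52.5 and 55.3 CPM, where 3 WT cells held 54.1% of the UMIs.

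Between genotypes *Bst2* passed 1.5-fold in 1 of 15 comparisons, all of which held at least 20 UMIs. That one was in plasma cell-like cells, from 146 to 231 CPM (log2 ratio 0.67, 0.47 to 0.86), and it dropped to 0.49 when the libraries were scaled by TMM factors. *Bst2* stood at 186 and 185 CPM in Clec4a+ monocyte-like cells and at 170 and 172 CPM in stem-like cells, where *Isg15*, *Rtp4* and *Oasl2* rose.

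*Ifi27l2a*, an interferon-inducible gene of the ISG12 family, rose in 11 of the 14 comparisons in which it reached 20 UMIs, and its interval lay above 0 in 13. In Clec4a+ monocyte-like cells it was at 949 CPM (874 to 1029) in WT and 1928 CPM (1869 to 1989) in *Tet2* KO, which is 2.03-fold (log2 ratio 1.02, 0.90 to 1.15). In cDC-like cells it was at 251 and 773 CPM, which is 3.08-fold (1.62, 1.37 to 1.89). In neutrophil-like cells it was at 162 and 483 CPM and in plasma cell-like cells at 69.9 and 236 CPM. Basophil-like cells of this sort rose from 10.9 to 62.8 CPM (2.53, 1.19 to 4.22), with 90.2% of the 41 *Tet2* KO UMIs in 3 of 72 cells, while those of the GMP sort held 2 and 1 UMIs.

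The gene was high in monocyte-like, cDC-like, pDC-like and neutrophil-like cells and low in granulocytic progenitor-like cells. In *Tet2* KO, T/NK-like cells at 1082 CPM and B-lineage-like cells at 599 CPM also lay above neutrophil-like cells. The Clec4a+ monocyte-like cells lay clear of the next type in both libraries. Clec4a- monocyte-like cells were at 288 and 481 CPM (0.74, 0.64 to 0.85), monocytic progenitor-like cells at 41.3 and 80.4 CPM, and granulocytic progenitor-like cells at 3.53 and 12.4 CPM, of which 67.7% of the *Tet2* KO UMIs were in 3 cells. In pDC-like cells it was at 382 and 489 CPM, a log2 ratio of 0.36 (0.20 to 0.52) that did not pass 1.5-fold. The rise in stem-like cells, from 17.7 to 35.0 CPM (0.99, 0.11 to 1.97), turned to -0.18 with Leiden clusters, and those in monocytic and granulocytic progenitor-like cells were 0.38 and 0.51 in the GMP sort. The early progenitor-like cells rose from 15.6 to 26.6 CPM in the Lin-CD11b sort and from 5.89 to 10.53 CPM in the GMP sort, calls that were lost with stricter thresholds (0.47 and 0.44). Cells with an *Ifi27l2a* UMI were 75.0% in WT and 89.2% in *Tet2* KO Clec4a+ monocyte-like cells at 5000 UMIs per cell (82.5% and 93.6% as deposited), against 2.72% and 4.06% in granulocytic progenitor-like cells.

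*Ifi27l2a* was also set beside the summed UMIs of the 10 monocyte markers in each cell type. The ratio of *Ifi27l2a* to these markers in WT and *Tet2* KO was 0.156 and 0.301 in Clec4a+ monocyte-like cells, 0.0789 and 0.134 in Clec4a- monocyte-like cells, and 0.0777 and 0.276 in cDC-like cells. It was 0.0312 and 0.0556 in monocytic progenitor-like cells and reached 0.386 and 0.547 in plasma cell-like cells. It was higher in *Tet2* KO in the 5 types given here.

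Markers of other cell types moved with some of these results, and their part in them was not tested. In Clec4a+ monocyte-like cells the 10 neutrophil markers summed to 7695 CPM in WT and 10633 CPM in *Tet2* KO, with none at 0, the 10 monocyte markers to 6085 and 6411 CPM, and the 8 conventional dendritic markers to 29.2 and 71.4 CPM, with 4 and 1 of them at 0. The 7 macrophage markers summed to 29.2 and 64.6 CPM there, with 4 and 2 at 0. In Clec4a- monocyte-like cells the neutrophil markers summed to 561 and 3424 CPM. In stem-like cells the monocyte markers were at 76.0 and 132 CPM, with 4 and 2 of 10 at 0, and the macrophage markers at 4.07 and 0.547 CPM. Granulocytic progenitor markers fell there from 3239 to 2118 CPM, and erythroid and megakaryocytic markers rose from 424 to 625 CPM. In neutrophil-like cells granulocytic progenitor markers summed to 2263 and 4393 CPM. In Lin-CD11b granulocytic progenitor-like cells neutrophil markers summed to 1628 and 6286 CPM. In cDC-like cells the monocyte markers were lower in *Tet2* KO, at 3230 and 2795 CPM, and in plasma cell-like cells they were higher, at 181 and 432 CPM.

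T/NK-like and B-lineage-like cells, with fewer than 50 WT cells each, were not compared. The 73 T/NK-like cells of the *Tet2* KO library held *Isg15* at 74.3 CPM, *Irf7* at 53.7 CPM, *Rtp4* at 39.9 CPM, *Oasl2* at 31.7 CPM and *Ifi27l2a* at 1082 CPM, beside 2742 CPM of summed monocyte markers. The 82 B-lineage-like cells held *Isg15* at 34.7 CPM, *Rtp4* at 32.1 CPM and *Ifi27l2a* at 599 CPM.

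Over all cells of the Lin-CD11b sort, a higher level can come from more cells of a type or from more RNA per cell, and pooled cells cannot tell these apart. *Isg15* was at 12.3 CPM in WT and 24.9 CPM in *Tet2* KO, a log2 ratio of 1.01, and 0.63 when the *Tet2* KO levels were weighted by the composition of the WT library. The ratio of *Rtp4* was 1.38 and became 0.84, that of *Oasl2* 1.15 and became 0.59, and that of *Ifi27l2a* 1.36 and became 0.99. For *Irf7* it was 0.65 and became 0.32. The IFIT genes, on 21 to 137 UMIs a library, went from 0.87 to 0.40 (*Ifit1*), from 0.94 to 0.70 (*Ifit2*) and from 1.09 to 0.33 (*Ifit3*). *Bst2* was at 248 and 251 CPM. The ratios of the 8 members whose interval lay above 0 were smaller at a fixed composition and kept their sign.

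In the GMP sort, over all cells, *Isg15* was at 5.94 and 7.87 CPM (0.41) and *Ifi27l2a* at 12.3 and 17.7 CPM (0.53). The ratio was -0.38 for *Irf7* (-0.87 to 0.13), -0.34 for *Oasl2* (-0.78 to 0.12) and -0.10 for *Rtp4* (-0.50 to 0.31). The intervals of these genes spanned 0, so their falls were within counting error. For *Bst2* the ratio was 0.20 (0.14 to 0.26), and the intervals of *Isg15* and *Ifi27l2a* also lay above 0.

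Of the other interferon pathway genes, 102 were in the matrix, grouped in lists by role. In Clec4a+ monocyte-like cells 29 of 74 genes rose (39.2%) and 4 fell, in cDC-like cells 25 of 64 (39.1%) and 4, and in stem-like cells 25 of 69 (36.2%) and 3, against the 15.3%, 11.7% and 12.8% of all genes that were higher there. The falls were 5.41%, 6.25% and 4.35% of the pathway genes, against 9.57%, 12.4% and 7.54% of all genes. In pDC-like cells 10 of 62 rose (16.1%, against 7.48% of all genes) and in Lin-CD11b monocytic progenitor-like cells 9 of 66 (13.6%, against 7.74%). In these 2 types 2 (3.23%) and 4 (6.06%) fell, against 7.99% and 4.36% of all genes. In the progenitor-like types of the GMP sort between 11.4% and 18.2% of the genes with at least 20 UMIs rose, against 4.04% to 5.36% of all genes. Between 0% and 5.71% fell, against 5.51% to 9.02% of all genes. Neutrophil-like cells gave 25 of 55 higher (45.5%, against 29.3%) and 3 lower (5.45%, against 4.68%). Basophil-like cells of the Lin-CD11b sort went the other way, with 2 of 24 higher (8.33%, against 13%) and 8 lower (33.3%, against 12.2%), and those of the GMP sort gave 6 of 43 higher (13.95%, against 9.55%) and 8 lower (18.6%, against 10.0%). The median log2 ratio over the list ranged from -0.30 in Lin-CD11b basophil-like cells to 0.43 in neutrophil-like cells.

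Among receptor and signal genes, *Irf9*, the DNA-binding partner of the activated complex, rose from 21.7 to 37.7 CPM in stem-like cells. *Ifnar2*, a receptor chain, fell from 159 to 95.5 CPM in Clec4a+ monocyte-like cells. In this list 4 of 9 genes rose and 1 fell in the Clec4a+ cells, against 15.3% and 9.57% of all genes, and 3 of 9 rose and 1 fell in stem-like cells, against 12.8% and 7.54%. The 3 ligand genes in the matrix did not reach 20 UMIs in any comparison, so no level of an interferon is given.

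Interferon-induced GTPases, which act on the vacuoles of intracellular pathogens, rose at 5 of 9 in stem-like, 4 of 5 in Clec4a+ and 5 of 6 in Clec4a- monocyte-like cells, against 12.8%, 15.3% and 7.99% of all genes. In each 0 fell, against 7.54%, 9.57% and 5.84% of all genes. *Iigp1* rose from 5.43 to 35.0 CPM (2.69, 1.26 to 4.61) and *Igtp* from 16.3 to 46.0 CPM in stem-like cells, and *Irgm1* from 12.96 to 50.2 CPM in Clec4a+ monocyte-like cells. Several of these genes are also induced by interferon gamma. Among the other effectors 17 of 40 rose in Clec4a+ monocyte-like cells, 11 of 32 in stem-like cells and 19 of 35 in cDC-like cells, against 15.3%, 12.8% and 11.7% of all genes. In the same order 0, 0 and 2 fell, against 9.57%, 7.54% and 12.4% of all genes. In cDC-like cells *Parp14* rose from 5.30 to 30.7 CPM and *Xaf1* from 8.84 to 43.0 CPM, while *Cmpk2* fell from 24.7 to 8.44 CPM.

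Sensors and adaptors rose at 4 of 8 in stem-like, 3 of 8 in Clec4a+ monocyte-like and 3 of 7 in cDC-like cells, against 12.8%, 15.3% and 11.7% of all genes. In the same order 1, 0 and 1 fell, against 7.54%, 9.57% and 12.4% of all genes. The nucleic acid sensor *Zbp1* was at 69.6 and 128 CPM in Clec4a+ monocyte-like cells and at 23.0 and 69.1 CPM in cDC-like cells, and *Tlr3*, the receptor for double-stranded RNA, was at 15.9 and 43.0 CPM in cDC-like cells. Among the other IRF factors 2 of 5 fell and 1 rose in Clec4a+ monocyte-like cells, against 9.57% and 15.3% of all genes, and those that fell were *Irf8*, from 458 to 222 CPM (-1.04, -1.26 to -0.82), and *Irf5*, from 164 to 107 CPM. *Usp18*, which removes ISG15 from proteins and dampens the receptor, was at 4.33 and 9.63 CPM in Clec4a- monocyte-like cells. *Socs3*, a feedback inhibitor of JAK kinases, fell from 25.8 to 10.9 CPM in stem-like cells (-1.24, -2.22 to -0.25). It was the only one to fall there of the 6 negative regulators with at least 20 UMIs. Of these 3 rose and 1 fell, against 12.8% and 7.54% of all genes.

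Within single cells, members were counted after each cell was thinned to 5000 UMIs. In the Lin-CD11b sort 102 of 1924 WT cells (5.30%, 4.34 to 6.40) and 341 of 3068 *Tet2* KO cells (11.1%, 10.0 to 12.3) held UMIs of 3 or more members. In the GMP sort the shares were 0.874% and 0.846%. Clec4a+ monocyte-like cells had 13 of 80 such cells in WT (16.3%, 8.95 to 26.2) and 91 of 249 in *Tet2* KO (36.5%, 30.6 to 42.9). Cells of cDC-like type were at 11.8% and 26.4%, stem-like cells at 6.25% and 13.4%, and pDC-like cells at 12.2% and 15.0%. The intervals of both genotypes did not overlap in the Clec4a+ cells or over the whole Lin-CD11b sort. The share over the whole sort was not weighted by the composition of the WT library. Clec4a+ monocyte-like cells were 4.16% of cells in WT and 8.12% in *Tet2* KO, while pDC-like cells were 8.11% and 5.44%.

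**Figure D3:**
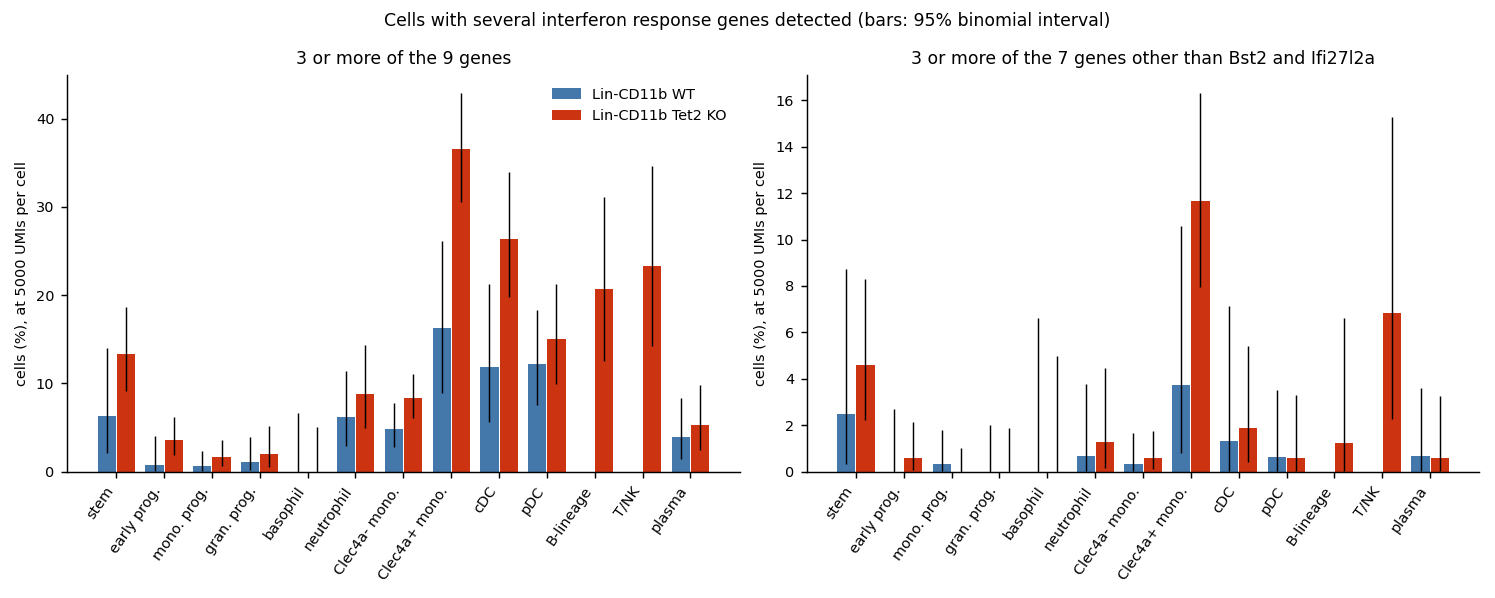
Share of cells (vertical axis, percent) with UMIs of 3 or more members by cell type (horizontal axis) in the Lin-CD11b libraries at 5000 UMIs per cell, WT in blue and *Tet2* KO in red, for all 9 members (left) and for the 7 without *Bst2* and *Ifi27l2a* (right); bars are exact binomial 95% intervals. In Clec4a+ monocyte-like cells the share is 16.3% and 36.5% for 9 members and 3.75% and 11.6% for 7.

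*Bst2* and *Ifi27l2a* have the most UMIs and mark pDC-like and monocyte-like cells, so the count was repeated without them. Then 14 Lin-CD11b WT cells (0.728%) and 65 *Tet2* KO cells (2.12%) held 3 or more of the remaining 7 genes. In Clec4a+ monocyte-like cells they were 3 of 80 (3.75%, 0.780 to 10.6) and 29 of 249 (11.6%, 7.94 to 16.3), and in stem-like cells 2 and 10 (2.5% and 4.61%). The 29 *Tet2* KO cells held 309 of the 605 UMIs of these 7 genes in their type, 51.1%, and the 3 WT cells 47 of 79, 59.5%. Their median depth was 6300 UMIs beside 7257 for the type. These cells were picked for holding 3 or more of the 7 genes, so a large share of the UMIs follows in part from the choice. In WT 38 of the 47 UMIs were in 1 cell, so the WT share rests on that cell.

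Single cells with many members were found in all 4 libraries. In GMP WT an early progenitor-like cell with 17727 UMIs held 18 of *Isg15*, 19 of *Rtp4* and 5 of *Oasl2*, and with 51 UMIs of the 7 genes it carried 45.1% of those in its type. In Lin-CD11b WT a Clec4a+ monocyte-like cell with 5414 UMIs held all 7 genes, with 12 UMIs of *Ifit3* and 10 of *Isg15*. In Lin-CD11b *Tet2* KO a Clec4a+ monocyte-like cell held 16 of *Isg15*, 10 of *Irf7* and 9 of *Ifit3*, and a T/NK-like cell of 6361 UMIs held all 7 genes. Such cells were present in WT as well as in *Tet2* KO, and their share was higher in the *Tet2* KO library of the Lin-CD11b sort.

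Co-detection was set against the number expected if the members were detected independently within each cell type. For 3 or more of the 7 genes, 14 cells were observed and 1.46 expected in Lin-CD11b WT (9.56 times) and 65 and 22.6 in *Tet2* KO (2.88 times). For 4 or more of all 9 members, 30 were observed and 6.16 expected in WT and 118 and 61.7 in *Tet2* KO. For 3 or more of 9, the numbers were 102 and 70.8 in WT and 341 and 315 in *Tet2* KO, close to expectation in the latter, where single members were detected in more cells.

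Pairs were assessed where at least 5 cells with both genes were expected or observed, so a pair with fewer expected was counted only where it was seen. Over whole libraries, 14 of 24 assessed pairs in Lin-CD11b WT, 23 of 34 in Lin-CD11b *Tet2* KO, 1 of 6 in GMP WT and 5 of 12 in GMP *Tet2* KO were seen at least 1.5 times as often as independent detection gives. Within Clec4a+ monocyte-like cells of the *Tet2* KO library this held for 17 of 28 pairs, and within its stem-like cells for 3 of 13.

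*Ifit1* and *Ifit3* occurred together in 12 Lin-CD11b *Tet2* KO cells where 0.770 were expected within cell types, 15.6 times as many. *Isg15* and *Rtp4* occurred together in 68 cells with 31.2 expected (2.18 times), *Isg15* and *Irf7* in 73 with 34.2 expected (2.14 times), and *Rtp4* and *Oasl2* in 46 with 22.1 expected (2.08 times). *Bst2* and *Ifi27l2a* were near expectation, with 769 cells holding both and 712 expected (1.08 times). So were *Bst2* and *Oasl2*, with 90 cells and 88.4 expected (1.02 times). In Lin-CD11b WT, *Isg15* and *Irf7* occurred together in 19 cells with 6.65 expected (2.86 times) and *Ifit1* and *Rtp4* in 8 with 1.26 expected. The pair of *Ifit1* and *Rtp4* was likewise assessed only because it was seen. Among the named pairs with at least 5 cells expected, those without *Bst2* thus occurred together more often than their detection in each cell type gives. *Isg15* with *Irf7* did so in both genotypes, while the pairs with *Bst2* named here did not.

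**Figure D4:**
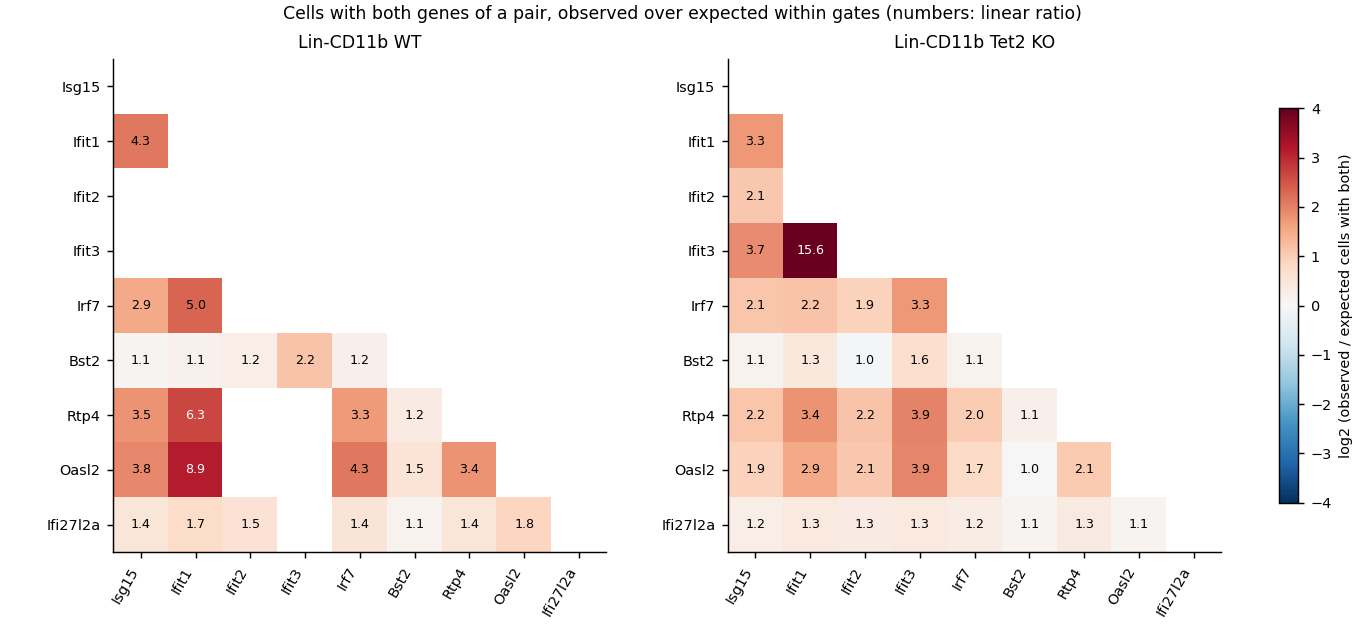
Heat maps of the number of cells with UMIs of both genes of a pair divided by the number expected within cell types (colour scale), for the members on both axes, in the Lin-CD11b WT library (left) and the Lin-CD11b *Tet2* KO library (right) at 5000 UMIs per cell; blank squares are pairs that were not assessed. *Ifit1* with *Ifit3* stands out in *Tet2* KO at 15.6, and *Bst2* with *Ifi27l2a* is near 1 at 1.08.

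Levels were also compared across 33 combinations of library and cell type with at least 50 cells, as a description with no test, since cell types of a library share its depth and its mouse. Pearson's r of log2(CPM + 10) was 0.90 for *Isg15* with *Oasl2*, 0.83 for *Rtp4* with *Oasl2*, 0.83 for *Irf7* with *Ifi27l2a* and 0.81 for *Ifit1* with *Ifit3*. It was 0.22 for *Rtp4* with *Ifi27l2a*, and between -0.24 and 0.36 for *Bst2* with the others. The mean standardised level of the 9 members was highest in Clec4a+ monocyte-like cells of *Tet2* KO (2.20), followed by T/NK-like cells of *Tet2* KO (1.89), Clec4a+ monocyte-like cells of WT (1.31) and cDC-like cells of *Tet2* KO (1.05). It was lowest in GMP WT monocytic progenitor-like cells (-0.72).

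Of 11197 other genes, the pattern of *Parp14*, an ADP-ribosyltransferase of the antiviral response, was most like that mean (r = 0.93), followed by *Mfsd6* (0.90), *Ifi206* (0.89), *Slfn5* (0.88), *Abcg1* (0.87), *Bri3* (0.87) and *Usp18* (0.87). Across the 249 Clec4a+ monocyte-like cells of *Tet2* KO, *Slfn5* (0.47), *Plac8* (0.41), *Irgm1* (0.41), *Ifi206* (0.40) and *Ifitm3* (0.39) went most closely with the number of members in the cell. *Ctss* (0.39), *Phf11b* (0.36) and *Ifi203* (0.35) followed, and then *Rsad2* and *Cxcl10*, both interferon-induced genes, at 0.34. Across the 217 stem-like cells of *Tet2* KO the first were *Ifitm3* (0.36), *Rgp1* (0.35) and *Ly6a* (0.29), which encodes the stem cell surface marker Sca-1. *H2-Eb1*, *Laptm4b* and *Cd74* followed at 0.28, and then *Iigp1*, *Rdh14*, *Irgm1* and *Pla2g4a* at 0.27. Of the genes named for stem-like cells, only *Iigp1* and *Irgm1* are in the pathway lists. These correlations over cells are weak and rest on sparse counts.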

How the data were processed

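The data are scRNA-seq counts of 4 bone marrow libraries, 1 for each genotype in each sort. The authors mapped reads with Cell Ranger 3.1.0 and filtered cells in Seurat, with mm10 as the genome, per the submitters' processing notes, and deposited the UMI counts of every gene and cell, not normalised, and a table that gives each cell its library (no column of per-sample values was set aside, 0 in all). The methods state a filter of under 5% mitochondrial counts, and cells over it are in the deposited counts. They were kept, and leaving them out was an alternative. The methods and the design text name different versions of the reagent kit. Library totals and depths are in the report, and intervals cover counting error only, since PCR, capture and cell-to-cell spread are not in them.

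Cells were gated by summed UMIs of markers per 10000 UMIs of the cell, in the order plasma cell, B-lineage, T/NK, neutrophil, basophil, pDC, cDC, monocyte, stem and progenitor types. The thresholds on this scale included 100 for Jchain, 8 for *Fn1* and *Lgals3* with 1 or more for *Clec4a1* and *Clec4a3* in Clec4a+ monocyte-like cells, 1 for the stem cell markers, *Hlf*, *Procr* and *Mecom* among them, in stem-like cells and 20 for *Mpo*, *Elane*, *Ctsg* and *Prtn3* in progenitors. The members and lists were chosen with earlier results of these data known, and the thresholds after the levels of markers and members per cluster had been seen. No doublet caller was run, and the deepest 5% of cells were left out as an alternative.

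UMIs were summed per library and gate with at least 50 cells in both libraries and given as CPM of all UMIs of those cells, with exact Poisson intervals, exact binomial intervals for shares and exact conditional binomial intervals for ratios, all at 95%. Medians were taken over log2 ratios of CPM + 1, which understate the change of low genes. Where 1 library held no UMI of a gene, 3 counts stood in for it as a floor. Cells, which hold at least 5003 UMIs, were thinned to 5000 UMIs with seed 1 for shares and co-detection. The expected number of cells with a pair or with several members was computed from the detection of each gene in the library or in each gate, and a pair was assessed where at least 5 cells were observed or expected. Named are the 9 members, the genes most like them by rule, and at most the 3 highest and 3 lowest ratios of each pathway list. Promoter windows came from RefSeq (GRCm38.p6) and gene positions from GENCODE (GRCm38), the build of the counts. The computation of ratios was tested on simulated data. The tools were Python 3.11.15, numpy 2.4.6, pandas 2.3.3, scipy 1.17.1, scanpy 1.11.5 and leidenalg 0.10.2 for clusters, edgeR 4.0.16 in R 4.3.3 for TMM factors only, and matplotlib 3.10.9.

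Alternatives were TMM factors, the mean over cells, an offset of 10 CPM, no filter on low counts, a fold of 2, Leiden clusters, thresholds 1.5 times as strict, the other sort, and leaving out cells by mitochondrial share, depth or the top 1% of member UMIs. Added after seeing the data were counts per cell without *Bst2* and *Ifi27l2a*, levels at the WT composition and the genes most like the members in stem-like cells. The chromatin libraries were not used here, and some single genes are not reported here.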

Additional observations from a re-analysis of the deposited data

Results flagged for a closer look

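*Irf7* stood out because its log2 ratio of *Tet2* KO to WT had opposite signs in cell types of the same sort, with intervals on opposite sides of 0. It was 1.41 in Clec4a- monocyte-like cells and 1.14 in Clec4a+ monocyte-like cells, and -0.82 in neutrophil-like cells. The difference between the cell types itself was not tested, since each ratio comes from 1 library per genotype.

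*Bst2* stood out in the same way, with smaller ratios. They were 0.17 in monocytic and 0.19 in granulocytic progenitor-like cells of the GMP sort and 0.67 in plasma cell-like cells, against -0.26 in cDC-like and -0.17 in pDC-like cells. This difference was not tested either, and of the 5 ratios only that of plasma cell-like cells passed 1.5-fold.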

How the results depend on the processing

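Of the log2 ratios of single members under the alternatives, 523 of 577 stayed within the counting interval of the reported value, 44 moved out of it and 10 turned from past 1.5-fold to the other sign, and the cause was not tested. The settings differed. In the other sort 20 stayed, 12 moved and 5 turned, and with Leiden clusters 54, 10 and 4. With TMM factors 75 stayed and 1 moved, and without cells of high mitochondrial share all 76 stayed. The total also holds whole-library ratios at the WT composition, where 12 stayed and 6 moved. Intervals are wide at low counts, so staying within one says little there. Ratios reported as under 1.5-fold changed sign in 47 of 277 settings, such as *Irf7* in pDC-like (0.28 to -0.62 with Leiden clusters), *Rtp4* in GMP early progenitor-like (-0.13 to 1.03 without the top 1% of cells) and *Ifit3* in Clec4a+ monocyte-like cells (-0.20 to 4.09, likewise). In the other sort the ratio was 0.10 for *Oasl2* in GMP monocytic and 0.18 for *Irf7* in GMP granulocytic progenitor-like cells, and -0.072 for *Isg15* and -0.00721 for *Oasl2* in Lin-CD11b early progenitor-like cells, and -1.42 for *Ifi27l2a* in Lin-CD11b basophil-like cells, on 3 UMIs. With Leiden clusters it was -0.13 for *Ifi27l2a* in GMP early progenitor-like, -0.18 for *Ifi27l2a* in stem-like, -0.13 for *Isg15* in Lin-CD11b granulocytic progenitor-like and -0.12 for *Isg15* in pDC-like cells. Without the deepest 5% of cells it was 0.12 for *Isg15* in plasma cell-like cells. The rises of *Isg15*, *Rtp4* and *Oasl2* in stem-like cells and all rises in Clec4a+ and Clec4a- monocyte-like and cDC-like cells stayed past 1.5-fold under every alternative that was run for them.

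The median over the members stayed within its range in 134 of 141 settings. In Lin-CD11b early progenitor-like cells it was 0.048 in the other sort, in Clec4a- monocyte-like cells 0.90 with the mean over cells and 0.98 with stricter thresholds, and in pDC-like cells -0.082 with Leiden clusters. Over the 2 members that reached 20 UMIs in Lin-CD11b basophil-like cells it was 1.01, and -0.50 in the other sort and 0.0 with no filter, and the 1 member of the GMP sort went from -0.12 to 0.29 with Leiden clusters. It ranged from 0.66 to 0.89 in stem-like, from 0.82 to 1.49 in Clec4a+ monocyte-like and from 0.68 to 1.62 in cDC-like cells.

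The number of members that rose depended on the fold, the filter and the cell definition. The share of all genes was taken only at 1.5-fold, with the filter and the marker thresholds. The counts under the alternatives in this paragraph and the next therefore have no such share beside them. They show how the counts moved and are not read against all genes. At a fold of 2 it was 0 in monocytic, granulocytic and early progenitor-like cells of the GMP sort (2, 1 and 2 at 1.5-fold), 2 in stem-like (5), 2 in Lin-CD11b early (4), 0 in monocytic (1) and 1 in granulocytic progenitor-like (2), 1 in Clec4a- monocyte-like (3) and 1 in plasma cell-like cells (2). With no filter it was 4 in GMP monocytic progenitor-like (2), 2 in Lin-CD11b monocytic (1) and 5 in granulocytic progenitor-like (2), 7 in Clec4a- monocyte-like (3), 6 in cDC-like (3), 3 in pDC-like (1), 5 in neutrophil-like (3), 2 in Lin-CD11b basophil-like (1) and 1 in GMP basophil-like cells (0). In the other sort it was 1, 4 and 4 in GMP monocytic, granulocytic and early progenitor-like cells (2, 1 and 2) and 2, 2 and 1 in Lin-CD11b early, monocytic and granulocytic progenitor-like cells (4, 1 and 2), and 0 in Lin-CD11b basophil-like cells (1). With Leiden clusters it was 0 in GMP early progenitor-like (2), 1 in Lin-CD11b granulocytic progenitor-like (2), 0 in pDC-like (1) and 1 in neutrophil-like cells (3). Stricter thresholds gave 2 in GMP granulocytic (1) and 0 in early progenitor-like cells (2). Without the top 1% of cells it was 3 in GMP granulocytic (1), 2 in Lin-CD11b monocytic (1) and 1 in granulocytic progenitor-like cells (2). The mean over cells gave 1 in Lin-CD11b granulocytic progenitor-like cells (2), and TMM factors 1 in plasma cell-like cells (2).

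Of the other pathway genes, at a fold of 2 the number that rose was 3, 4 and 3 in GMP monocytic, granulocytic and early progenitor-like cells (12, 14 and 8 at 1.5-fold), 12 in stem-like (25), 9, 3 and 3 in Lin-CD11b early, monocytic and granulocytic progenitor-like (14, 9 and 17), 8 and 14 in Clec4a- and Clec4a+ monocyte-like (16 and 29), 14 in cDC-like (25), 3 in pDC-like (10), 11 in neutrophil-like (25), 9 in plasma cell-like (19) and 1 and 3 in Lin-CD11b and GMP basophil-like cells (2 and 6). With no filter these were, in the same order, 20, 22 and 14, then 38, then 28, 26 and 32, then 35 in Clec4a- monocyte-like, 43 in cDC-like, 26 in pDC-like, 46 in neutrophil-like, 35 in plasma cell-like and 19 and 29 in basophil-like cells. The number that fell at a fold of 2 was 1 each in GMP early (4), stem-like (3), Lin-CD11b monocytic progenitor-like (4), Clec4a+ monocyte-like (4), cDC-like (4) and pDC-like cells (2), 0 in neutrophil-like (3), and 4 and 2 in Lin-CD11b and GMP basophil-like cells (8 each). With no filter it was 5, 5 and 9 in the GMP types (0, 3 and 4), 6 in stem-like (3), 9, 11 and 9 in Lin-CD11b early, monocytic and granulocytic progenitor-like (3, 4 and 1), 1 and 8 in Clec4a- and Clec4a+ monocyte-like (0 and 4), 8 in cDC-like (4), 11 in pDC-like (2), 9 in neutrophil-like (3), 15 in plasma cell-like (3) and 29 and 16 in basophil-like cells. TMM factors gave 12 higher and 5 lower in neutrophil-like cells (25 and 3) and 1 lower in Clec4a- monocyte-like cells (0). TMM factors in neutrophil-like cells were 0.894 for WT and 1.12 for *Tet2* KO.

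The share of cells with 3 or more members, in GMP WT, GMP *Tet2* KO, Lin-CD11b WT and Lin-CD11b *Tet2* KO, was 0.874%, 0.846%, 5.30% and 11.1%. It was 5.64%, 5.22%, 10.8% and 20.4% with cells as deposited, 7.39%, 8.68%, 24.5% and 35.8% for 2 or more members, and 0.159%, 0.221%, 1.56% and 3.85% for 4 or more. It was 0.159%, 0.147%, 1.04% and 3.096% without *Bst2* and *Irf7*, and 0.0795%, 0.257%, 0.728% and 2.12% without *Bst2* and *Ifi27l2a*. The assessed pairs at 1.5 times the expected co-detection were 0% in GMP WT with the expectation taken within cell types (16.7%) and 23.1% within stem-like cells of Lin-CD11b *Tet2* KO (67.6%). Members with the promoter element were 1 and 1 with spacings of 1 and 3 bases (4).

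Leiden clusters could not be run for Clec4a+ monocyte-like cells, nor the other sort for stem-like, monocyte-like, cDC-like, pDC-like, neutrophil-like and plasma cell-like cells, nor stricter thresholds for Lin-CD11b basophil-like cells, each with fewer than 50 cells in a library. No paired analysis was possible because each group has 1 library. Depth limits the IFIT genes most, of which *Ifit2* reached 20 UMIs in 2 comparisons and *Ifit3* in 1.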
